A study of Rattus norvegicus with 23 samples.

Results

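Glucose transporters and glycolytic isozymes were examined in rat femur as 10 genes chosen by symbol: the transporters Slc2a1 and Slc2a4, the hexokinases Hk1 and Hk2, the isomerase Gpi, the phosphofructokinase subunits Pfkm, Pfkl and Pfkp, and the enolases Eno1 and Eno3. All 10 were found by gene name among the 30562 genes of the deposited tables, and all 10 were among the 15271 genes that had enough counts to be tested. Rows were picked by name, but the set itself was chosen with earlier results of these data known. The isozymes known from muscle, Slc2a4, Pfkm and Eno3, were set beside the widely expressed ones.

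Polyadenylated RNA from femora of female Wistar rats was sequenced in bulk, as 23 libraries in 5 groups that share 1 batch label. MetOP is the labels' name for metabolic osteoporosis, which the study induced by feeding a high fat diet together with L-NAME, a drug that blocks nitric oxide synthase. The groups were MetOP rats given semaglutide and PYY3-36 together (the combination, n = 5), MetOP rats given semaglutide, an agonist of the GLP-1 receptor (n = 5), MetOP rats given PYY3-36, a gut peptide that acts on neuropeptide Y receptors (n = 4), MetOP rats given saline (n = 5), and healthy controls on a standard diet given saline (n = 4). Titles of all MetOP groups also hold the letters lfd, and titles of the controls oLN, neither of which the labels explain; ages and doses are not given there. The treatment labels of the PYY3-36 libraries end in 4 different numbers, so their grouping rests on the shared title. Whether each library is a different rat is not stated, so p-values measure only the spread between these samples.

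Glucose enters cells through facilitative transporters, of which GLUT1 (Slc2a1) serves basal uptake in most cells and GLUT4 (Slc2a4) moves to the surface of muscle and fat cells in response to insulin. Hexokinase traps glucose as glucose 6-phosphate, glucose 6-phosphate isomerase (Gpi) converts it to fructose 6-phosphate, phosphofructokinase makes the committed step of glycolysis, and enolase makes phosphoenolpyruvate near its end. Each of these steps except the isomerase has isozymes from separate genes, and adult skeletal muscle is known for GLUT4, hexokinase 2, the M subunit of phosphofructokinase and the beta enolase Eno3, while the hexokinase of red blood cells, the liver and platelet subunits Pfkl and Pfkp and the alpha enolase Eno1 are found widely.

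Libraries held 19.25 to 40.65 M counts (median 25.9 M), of which 46.1 to 83.9% came from mitochondrially encoded genes, which left 4.28 to 16.1 M for all other genes. Levels are given as counts per M scaled by TMM factors (CPM) for comparisons of 1 gene between libraries, and as the authors' FPKM, which are per transcript length, for comparisons between genes. Marker genes of osteoblasts were counted in every library, as the tissue label implies, with 76.5 CPM in sum at the lowest, and so were those of skeletal muscle, which reached 86330 CPM. A muscle level was defined as the mean log2 CPM of 22 skeletal muscle markers, none of them among the 10 genes. It lay at 6.01 in PYY3-36 library A216 and at 6.27 in combination library A320, and between 8.75 and 11.2 in the other 21. In bulk RNA, fewer cells of a type and less RNA per cell cannot be told apart. Results below are given with and without these 2 libraries where they turn on them.

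By mean FPKM over the 23 libraries the order was Eno3 (577.9), Pfkm (129.4), Gpi (66.2), Slc2a4 (35.4), Eno1 (20.5), Hk1 (2.58), Pfkl (2.13), Hk2 (1.73), Pfkp (1.70) and Slc2a1 (0.654). The upper part of this order was steady. Eno3 exceeded Pfkm in FPKM in 23 of 23 libraries, Pfkm exceeded Gpi in 21, and Gpi exceeded Slc2a4 in 21. Slc2a4 exceeded Eno1 in 17 of 23, and Eno1 exceeded Hk1 in all 23. The low neighbours were not separated: Hk1 exceeded Pfkl in 17, Pfkl exceeded Hk2 in 14 and Hk2 exceeded Pfkp in 11 of 23 libraries. Pfkp exceeded Slc2a1 in 20. The enolase and phosphofructokinase genes of muscle therefore stood at the top of the FPKM order and their widely expressed isozymes below them.

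**Figure D1:**
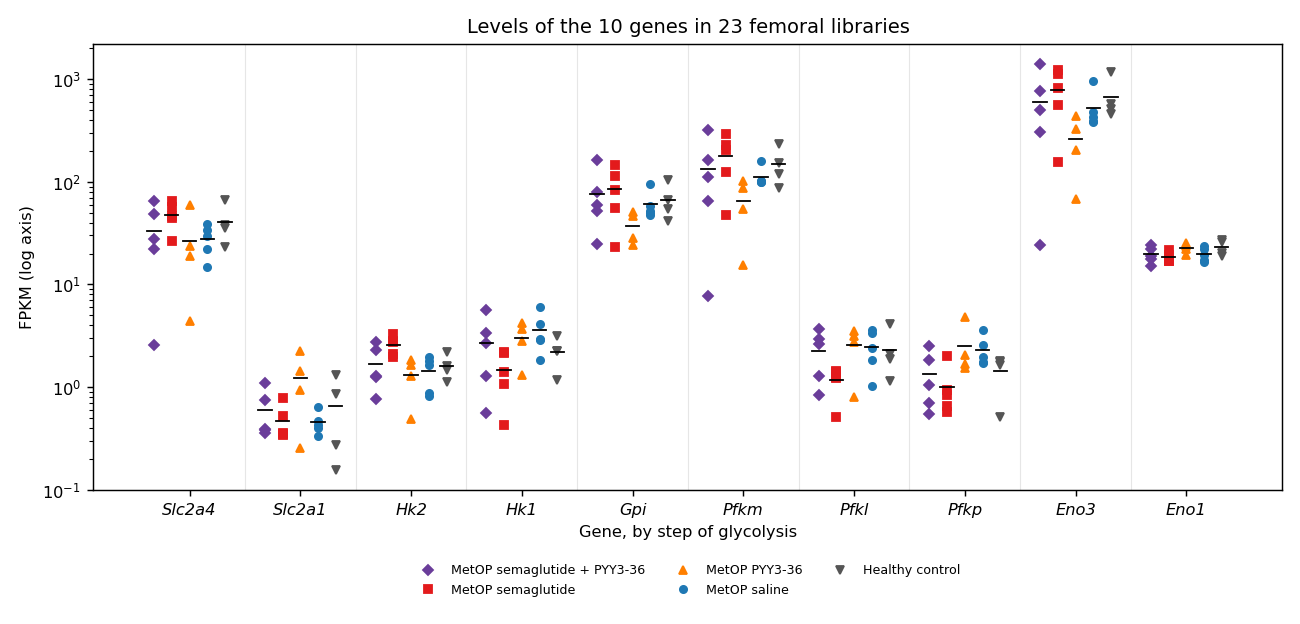
FPKM of the 10 genes (log axis) in each of the 23 libraries, by group, with the combination, semaglutide and PYY3-36 groups left of MetOP saline and healthy control; points are libraries and bars are group means. Eno3 lies highest with a mean of 577.9 FPKM over all libraries and Slc2a1 lowest with 0.654 FPKM, while Eno1 shows the narrowest band.

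The genes differed in how far they varied between libraries. The ratio of the highest to the lowest CPM over the 23 libraries was 61.5 for Eno3, 44.7 for Pfkm and 27.1 for Slc2a4. It was 14.2 for Slc2a1, 13.9 for Hk1, 9.21 for Pfkp, 8.497 for Pfkl, 7.53 for Gpi and 6.85 for Hk2. Eno1 varied least, with a ratio of 1.84. Its SD of log2 CPM, 0.23, lay at the 1.2 percentile of the tested genes, whose median SD was 0.833, whereas that of Eno3, 1.38, lay at the 72.1 percentile. The 2 enolase genes thus stood far apart in steadiness as well as in level.

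Slc2a4, the insulin-responsive transporter (chromosome 10, 54666015 to 54671565, minus strand, mRatBN7.2), had 132, 184, 60.5, 77.2 and 6.79 CPM in combination libraries, 178, 127, 130.5, 69.2 and 158.5 in semaglutide libraries, 51.5, 11.9, 64.0 and 159.5 in PYY3-36 libraries, 62.3, 105.2, 39.2, 83.4 and 92.9 in MetOP saline libraries, and 64.5, 182.5, 101.2 and 104.4 in healthy control libraries. The lowest values were those of A320 and A216, the libraries of lowest muscle level, and every pair of groups overlapped. Slc2a1, the basal transporter (chromosome 5, 132717196 to 132745416, plus strand), had 1.05, 1.01, 1.05, 2.09 and 2.86 CPM in combination libraries, 0.939, 1.419, 1.03, 2.04 and 0.987 in semaglutide libraries, 3.87, 5.996, 2.51 and 0.673 in PYY3-36 libraries, 1.18, 0.901, 1.67, 1.30 and 1.09 in MetOP saline libraries, and 2.39, 0.423, 0.776 and 3.61 in healthy control libraries. These values rest on 10 to 172 counts a library. The PYY3-36 group held both the highest value of the series, in A216, and 1 of the lowest, in A220.

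As a share of the summed FPKM of both transporters, Slc2a4 took 92.9% ± 12.7 (SD, n = 5) in combination libraries, 98.8% ± 0.973 (n = 5) in semaglutide libraries, 88.8% ± 15.2 (n = 4) in PYY3-36 libraries, 98.1% ± 1.29 (n = 5) in MetOP saline libraries and 98.0% ± 1.73 (n = 4) in healthy control libraries. The wide SDs of the combination and PYY3-36 groups came with A320 at 70.3% and A216 at 66.3%, against 93.0 to 99.8% in the other 21 libraries. Slc2a3, a further transporter gene outside the 10, had a mean FPKM between 1.49 in MetOP saline and 2.94 in the combination, above that of Slc2a1 in each group.

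Of the hexokinases, Hk1 (chromosome 20, 30230486 to 30332131, minus strand) is the form of most tissues and of red blood cells. It had 9.37, 4.23, 24.4, 20.4 and 39.3 CPM in combination libraries, 3.09, 10.3, 17.1, 15.5 and 7.99 in semaglutide libraries, 20.1, 30.3, 26.6 and 9.31 in PYY3-36 libraries, 21.4, 13.5, 43.0, 30.7 and 21.4 in MetOP saline libraries, and 23.5, 8.59, 17.3 and 16.9 in healthy control libraries. In 3 of 5 semaglutide libraries Hk1 lay below every MetOP saline library. Hk2, the insulin-regulated form of muscle and fat (chromosome 4, 115234509 to 115283530, minus strand), had 4.73, 10.6, 4.8, 8.93 and 2.77 CPM in combination libraries, 12.4, 10.6, 7.995, 7.68 and 10.49 in semaglutide libraries, 4.83, 1.81, 6.15 and 6.71 in PYY3-36 libraries, 6.34, 6.80, 3.21, 7.60 and 3.09 in MetOP saline libraries, and 6.27, 5.58, 8.67 and 4.27 in healthy control libraries. All 5 semaglutide libraries lay above all 5 MetOP saline libraries and above all 4 PYY3-36 libraries, by a narrow margin against saline (7.68 against 7.60 CPM).

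The hexokinase pair was the most evenly divided of the 4. Hk2 took 43.5% ± 26.7 (SD, n = 5) of the summed FPKM in combination libraries, 64.6% ± 17.1 (n = 5) in semaglutide libraries, 32.8% ± 19.6 (n = 4) in PYY3-36 libraries, 30.5% ± 14.04 (n = 5) in MetOP saline libraries and 42.9% ± 11.3 (n = 4) in healthy control libraries. The lowest semaglutide library stood at 47.5% and the highest saline library at 49.3%, so these groups overlapped slightly in share, although not in the CPM of Hk2. Hk3, a hexokinase form of blood cells, had a mean FPKM between 0.135 in healthy controls and 1.00 in the combination, with 278 counts at most in a library.

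Gpi (chromosome 1, 86828216 to 86856086, minus strand), which is a single gene for its step, had 183, 385, 119, 140.2 and 54.8 CPM in combination libraries, 338, 127, 278, 51.1 and 191.5 in semaglutide libraries, 104.7, 53.9, 115.5 and 62.3 in PYY3-36 libraries, 121, 109, 127, 117 and 218.7 in MetOP saline libraries, and 155, 240.8, 131 and 97.3 in healthy control libraries. Semaglutide library A242, combination library A320 and PYY3-36 libraries A216 and A220 were the 4 lowest of the series.

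Pfkm, the muscle subunit of phosphofructokinase (chromosome 7, 129221653 to 129259192, plus strand), had 654, 1301, 257, 452 and 29.1 CPM in combination libraries, 1163, 491, 971, 181 and 824 in semaglutide libraries, 341, 59.5, 400.4 and 208 in PYY3-36 libraries, 401, 406, 394, 404 and 639 in MetOP saline libraries, and 617, 939, 497 and 351 in healthy control libraries. The same 4 libraries were the lowest, with A320 at the bottom. Pfkl, the liver subunit (chromosome 20, 10664272 to 10686315, plus strand), ranged from 2.49 to 9.99 CPM in combination libraries, 1.417 to 4.30 in semaglutide libraries, 2.22 to 9.87 in PYY3-36 libraries, 2.97 to 10.02 in MetOP saline libraries and 3.30 to 12.04 in healthy control libraries. Pfkp, the platelet subunit (chromosome 17, 63729780 to 63794018, plus strand), had 3.11, 1.68, 7.47, 2.13 and 5.22 CPM in combination libraries, 1.96, 2.75, 6.36, 1.65 and 2.53 in semaglutide libraries, 14.02, 5.96, 4.996 and 4.44 in PYY3-36 libraries, 7.73, 5.16, 10.2, 6.05 and 5.09 in MetOP saline libraries, and 5.38, 1.52, 5.11 and 5.45 in healthy control libraries. In 4 of 5 semaglutide libraries Pfkp lay below every saline library, and in the other, A241, it lay among them.

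Pfkm took 89.2% ± 17.5 (SD, n = 5) of the summed FPKM of the 3 subunit genes in combination libraries, 98.6% ± 0.602 (n = 5) in semaglutide libraries, 89.15% ± 10.7 (n = 4) in PYY3-36 libraries, 95.7% ± 1.85 (n = 5) in MetOP saline libraries and 97.1% ± 1.59 (n = 4) in healthy control libraries. It fell short of 90% in A320 (58.2%) and A216 (73.3%) and took at least 92.0% in each of the other 21 libraries.

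Eno3, the beta enolase of muscle (chromosome 10, 55366975 to 55375921, plus strand), had 1877, 3556, 759, 1261 and 57.8 CPM in combination libraries, 3019, 1390.0, 3007, 371 and 2078 in semaglutide libraries, 802, 165, 1072 and 494 in PYY3-36 libraries, 1078, 1189, 906, 987 and 2383 in MetOP saline libraries, and 1449, 2882, 1324 and 1139 in healthy control libraries. A320, A216, A242 and A220 were again the 4 lowest, and all groups overlapped. Eno1, the alpha enolase of most tissues (chromosome 5, 160719951 to 160731336, plus strand), ranged from 35.8 to 55.3 CPM in combination libraries, 38.7 to 51.8 in semaglutide libraries, 45.4 to 58.6 in PYY3-36 libraries, 40.7 to 56.2 in MetOP saline libraries and 44.8 to 65.8 in healthy control libraries. Eno1 therefore kept within a narrow band while Eno3 spread over more than an order of magnitude.

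Eno3 took 87.3% ± 20.9 (SD, n = 5) of the summed FPKM of Eno1 and Eno3 in combination libraries, 96.3% ± 3.46 (n = 5) in semaglutide libraries, 88.15% ± 10.3 (n = 4) in PYY3-36 libraries, 96.0% ± 1.14 (n = 5) in MetOP saline libraries and 96.2% ± 1.69 (n = 4) in healthy control libraries. Even in A320, the library of lowest Eno3, its share was 50.2%. Eno2, the gamma enolase of neurons, had a mean FPKM between 0.466 in semaglutide libraries and 1.86 in PYY3-36 libraries, below that of Eno1 in each group.

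**Figure D2:**
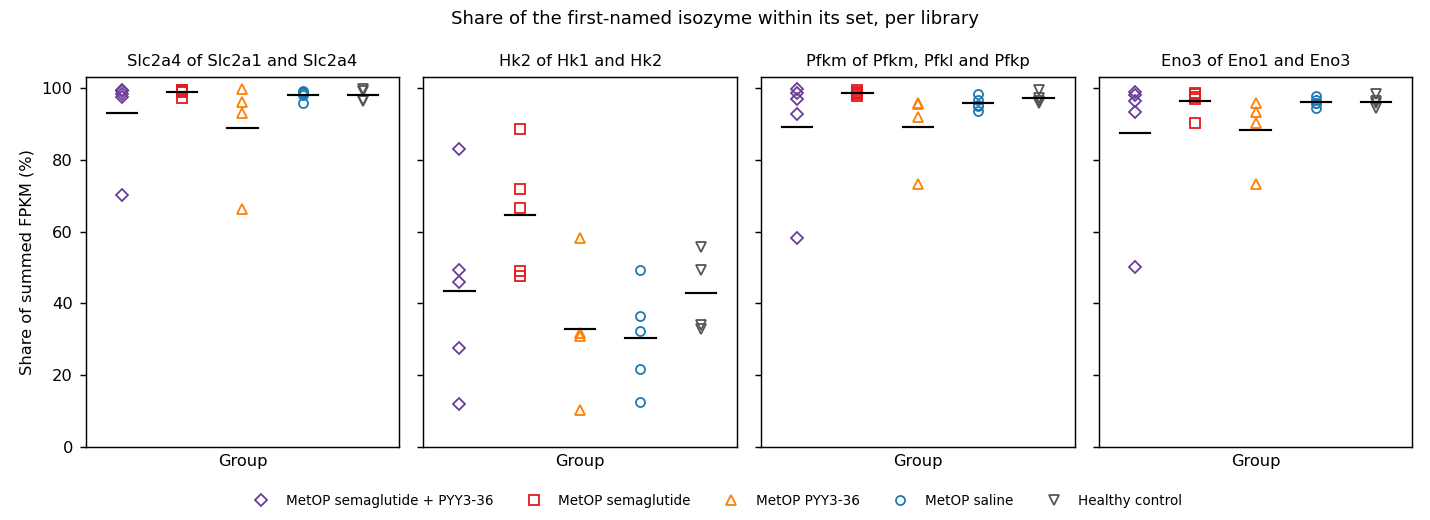
Share of the muscle isozyme in the summed FPKM of those of the 10 genes that serve its step (percent) in each library, by group. Other genes of a step, such as Slc2a3, Hk3 and Eno2, are left out of the sums. Points are libraries and bars are group means. Hk2 ranges from 10.4 to 88.6%, whereas Slc2a4, Pfkm and Eno3 exceed 90% in all but a few libraries, with A216 and A320 at the bottom.

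Across libraries the muscle isozymes moved with the markers of skeletal muscle and several widely expressed ones moved against them. Over the 23 libraries, correlation with the muscle level was r = 0.943 and rho = 0.860 for Slc2a4, r = 0.911 and rho = 0.863 for Pfkm, and r = 0.910 and rho = 0.871 for Eno3, each with a two-sided permutation p of 1e-05, the smallest that 100000 resamples can give (adjusted over the 10 relations 3.33e-05 for r and 2.5e-05 for rho). Because A216 and A320 stood apart from the rest in muscle level, the values without them are the ones to read: over the other 21 libraries r was 0.839 for Slc2a4, 0.758 for Pfkm and 0.789 for Eno3, and rho was 0.817, 0.821 and 0.831 in the same order. Gpi (r = 0.694, rho = 0.727) and Hk2 (r = 0.517, rho = 0.518) were also positive over the 21. How many of all tested genes follow the muscle level this closely is not given here. The relation can therefore not be called particular to these genes.

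Hk1 and Pfkp had negative correlations with the muscle level over those 21 libraries, r = -0.704 (rho = -0.721) for Hk1 and r = -0.623 (rho = -0.549) for Pfkp. Slc2a1 had r = -0.499 and rho = -0.540. Pfkl passed over the 21 by rho (-0.455, adjusted permutation p = 0.0452) and not by r (-0.361, adjusted permutation p = 0.121), and Eno1 passed by neither (r = -0.272, rho = -0.294, permutation p = 0.23 and 0.194). Taken as deviations from the group means over 23 libraries, r was 0.963 for Slc2a4, 0.902 for Eno3 and 0.899 for Pfkm, and Pfkp passed by rho (-0.507, adjusted permutation p = 0.0166) and not by r (-0.339, permutation p = 0.113).

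Relations with fast and slow fibre markers were computed separately. Fast fibre level, the mean log2 CPM of markers such as Myh4 and Tnnt3, separated the libraries into 4 between 6.15 and 7.45 (A216, A220, A242 and A320) and 19 between 9.71 and 11.81. Within the 19, correlation with the fast level was r = 0.957 and rho = 0.946 for Eno3, r = 0.948 and rho = 0.933 for Pfkm, and r = 0.918 and rho = 0.884 for Gpi (permutation p = 1e-05 for each, adjusted 3.33e-05 over the 10 genes). For Slc2a4 it was r = 0.787 and rho = 0.763 (adjusted permutation p of rho 0.00065). With the slow fibre level, the mean log2 CPM of markers such as Myh7 and Tnnt1, Slc2a4 had r = 0.775 and rho = 0.747 (adjusted permutation p of rho 0.0033) over the same 19 libraries, while Eno3 (rho = 0.447, adjusted permutation p = 0.0947), Pfkm (rho = 0.416, adjusted permutation p = 0.0984) and Gpi (rho = 0.261, adjusted permutation p = 0.279) did not pass. Without the 2 of these libraries farthest from the median, r with the fast level was 0.941 for Eno3 and 0.922 for Pfkm, and r with the slow level was 0.722 for Slc2a4. Within the 19 libraries Slc2a4 thus had similar values with both lists. Over all 23 libraries Eno3 (r = 0.498, adjusted permutation p = 0.0487) and Pfkm (r = 0.511, adjusted permutation p = 0.0421) passed with the slow level by r. Neither passed by rho (0.312 and 0.294), nor by r without the 2 libraries farthest in slow level (adjusted permutation p = 0.202 and 0.222). Whether the correlations of 2 genes with the same list differ was not tested.

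PYY3-36 library A220 and semaglutide library A242, singled out after their values were seen, combined a high slow with a low fast fibre level. Their slow fibre levels, 11.345 and 11.045, stood beside fast fibre levels of 6.91 and 6.42. Slc2a4 stood at 159.5 CPM in A220 and 69.2 CPM in A242, against a median of 92.9 CPM over the 23 libraries. The value in A242 was the lowest of the semaglutide group. The FPKM ratio of Eno3 to Slc2a4 was 3.43 in A220 and 5.95 in A242, against a median of 15.7 over the 23 libraries. The FPKM ratio of Eno3 to Pfkm was steadier, from 3.20 to 6.01 with a median of 4.33. Its highest value was 1.88 times its lowest, against 8.28 times for the ratio of Eno3 to Slc2a4. The CPM of Eno3 and of Pfkm spanned more than an order of magnitude over the same libraries.

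**Figure D3:**
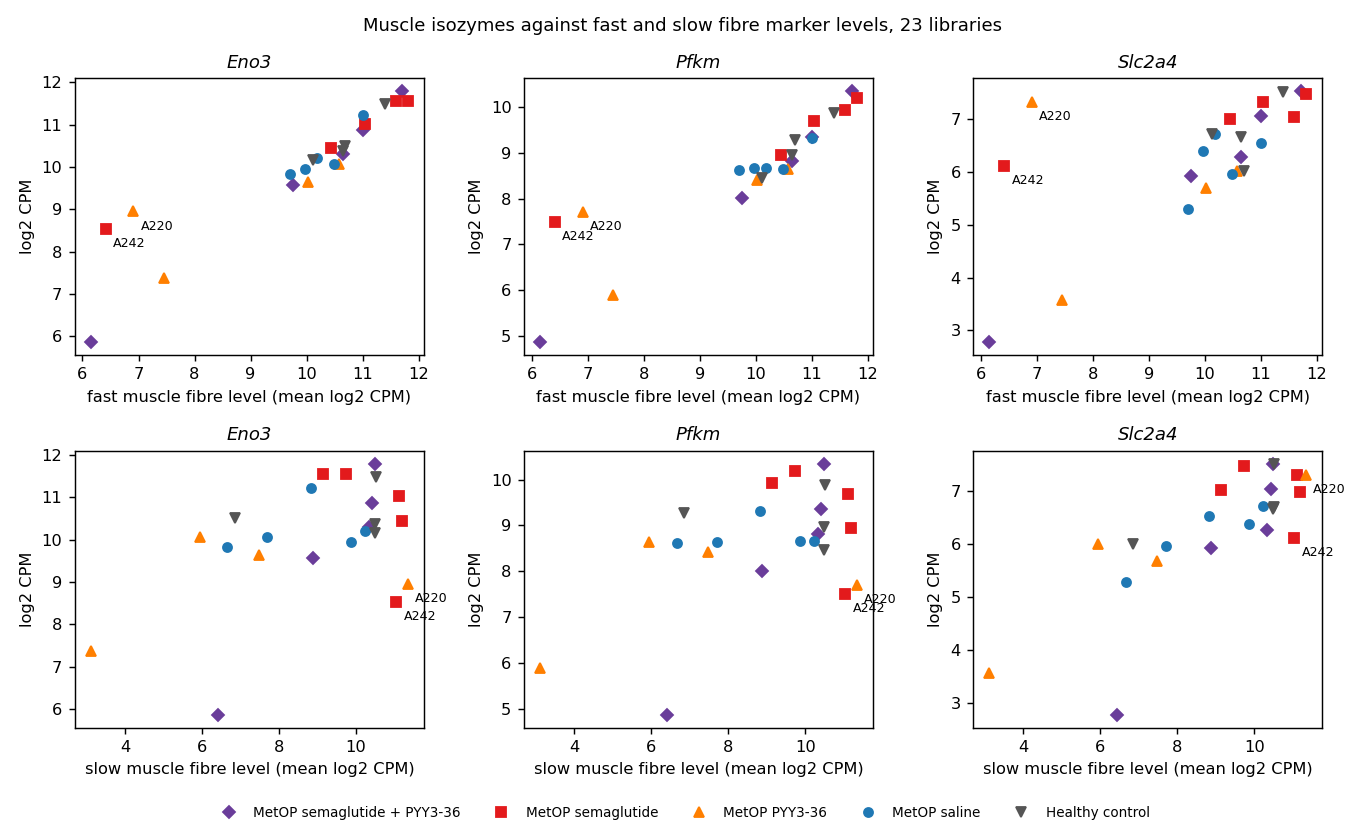
Log2 CPM of Eno3, Pfkm and Slc2a4 against the fast (upper row) and slow (lower row) muscle fibre marker level in log2 CPM, 1 point per library, coloured by group. Eno3 and Pfkm follow the fast level, and A220 and A242, with fast levels of 6.91 and 6.42 and slow levels of 11.345 and 11.045, lie lower in Eno3 and Pfkm than in Slc2a4 relative to the other libraries.

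Among pairs of the 10 genes, the steadiest relation was that of Pfkm with Eno3 (r = 0.991, rho = 0.983, permutation p = 1e-05 for each; 0.978 for both without the 2 libraries farthest from the median of Pfkm). Gpi had rho = 0.953 with Pfkm and 0.936 with Eno3. Slc2a4 and Hk1 were opposed (r = -0.745, rho = -0.890; r = -0.863 and rho = -0.871 without the 2 farthest), and Hk1 and Pfkl went together (r = 0.685, rho = 0.806). The 2 enolases showed no relation that passed (r = -0.284, adjusted permutation p = 0.199; rho = -0.273, adjusted permutation p = 0.213). Of the 45 pairs, 30 passed by rho after adjustment over all pairs. The share of passing pairs among other tested genes is not given here. Values of all genes in a library share its depth and normalization, so these pairs are not independent of each other.

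Widely expressed isozymes had their highest marker correlations with lists of marrow and vessel cells. Of 150 relations between the 10 genes and 15 marker lists, which were computed after the muscle result was known, 64 passed by rho and 57 by r. The share that passes among all tested genes is not given here, so these counts do not set the 10 genes apart. With the macrophage level, Hk1 had r = 0.917 and rho = 0.867, Pfkp r = 0.804 and rho = 0.841, and Pfkl r = 0.714 and rho = 0.730. Without the 2 libraries farthest from the median macrophage level these were r = 0.877 for Hk1, 0.749 for Pfkp and 0.717 for Pfkl. Eno1 (rho = 0.57, adjusted permutation p = 0.0211) and Slc2a1 (rho = 0.55, adjusted permutation p = 0.0238) also passed with the macrophage level. Without the 2 farthest libraries neither passed by rho (adjusted permutation p = 0.0701 and 0.0917). Slc2a4, in contrast, had rho = -0.843 with that level. Hk1 had rho = 0.806 with the erythroid level, and Pfkp had rho = 0.732 with the osteoblast level and 0.734 with the osteoclast level. Slc2a1 was highest with the endothelial level (r = 0.689, rho = 0.667, adjusted permutation p of rho 0.00522; r = 0.653 and rho = 0.584 without the 2 farthest). No relation with the adipocyte or peripheral nerve list passed over the 23 libraries, and without the 2 libraries farthest in the nerve level Slc2a4 passed by rho with that list (-0.63, adjusted permutation p = 0.0187). The marker levels of a library are not independent, since RNA of 1 tissue takes counts from the others.

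**Figure D4:**
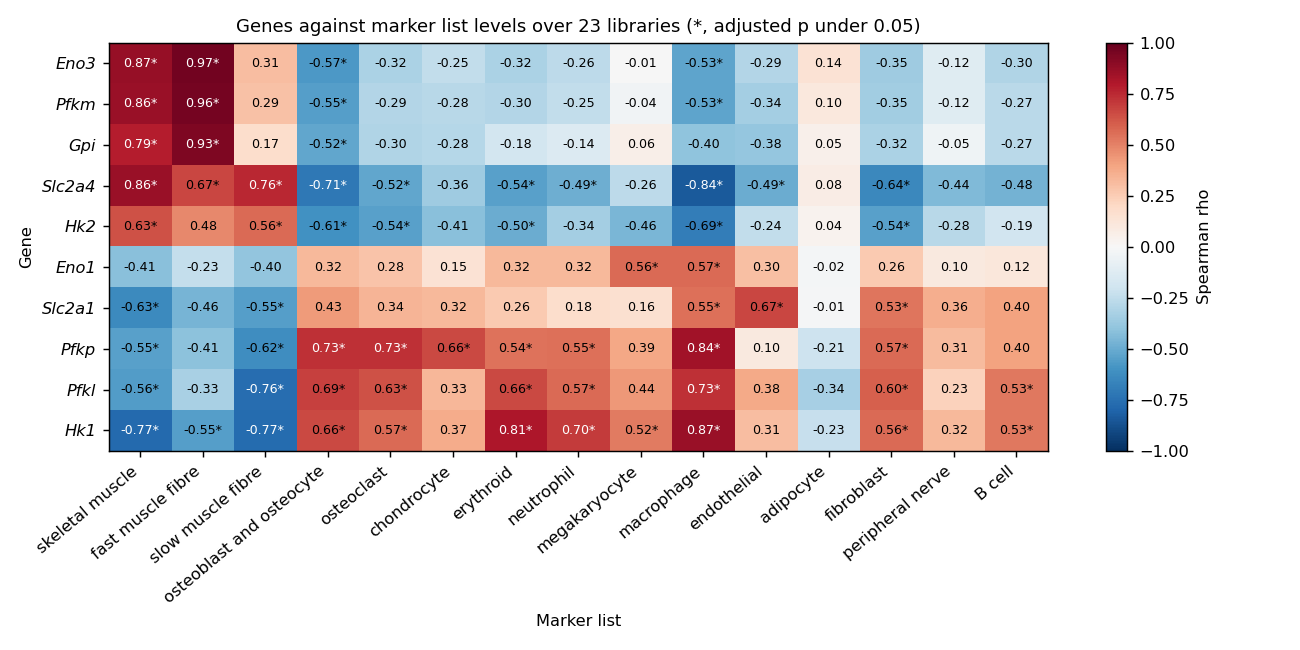
Spearman rho over 23 libraries between each of the 10 genes (rows) and the level of each marker list (columns), on a colour scale from negative to positive; an asterisk marks an adjusted permutation p under 0.05 over all 150 relations. Slc2a4, Hk2, Gpi, Pfkm and Eno3 are positive with the skeletal muscle list. Hk1, Pfkl and Pfkp (rho 0.867, 0.730 and 0.841) and also Eno1 and Slc2a1 (rho 0.57 and 0.55) are positive with the macrophage list.

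The 3 tested genes outside the set whose log2 CPM was most like that of each member, by rho over 23 libraries, were Myl1 (0.992), LOC108351137 (0.985) and Plpp7 (0.984) for Eno3, and Myom2 (0.987), Pgk1 (0.981) and Myl1 (0.978) for Pfkm. For Gpi they were Gpd1 (0.976), Ppp3cb (0.965) and Pgm1 (0.959). For Slc2a4 they were Ube2b (0.976), the muscle glycogen synthase gene Gys1 (0.965) and the Z-disc gene Ldb3 (0.964). Pgk1 and Pgm1 encode phosphoglycerate kinase and phosphoglucomutase, and Myl1 and Myom2 encode proteins of the muscle sarcomere.

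For Hk2 the 3 most alike were Hbs1l (0.895), Eif4g1 (0.892) and Kif1c (0.879), and for Hk1 Smc4 (0.961), Sdcbp (0.958) and Klf3 (0.942), the last a transcription factor of red cell precursors. For Pfkl they were Cd47 (0.892), Hsd17b11 (0.891) and Klhl5 (0.879), and for Pfkp AABR07039328.2 (0.864), the complement gene C1qa (0.861), which is in the macrophage marker list, and Cand1 (0.854). Slc2a1 was most like the vascular laminin gene Lama4 (0.839), Rapgef6 (0.836) and Itpr3 (0.83). Eno1 had the lowest such values, with Jrkl (0.769), Bivm (0.719) and Clec10a (0.718).

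Start-site sequence was available for 9 of the 10 genes in RefSeq (GRCr8), in 11 windows of 250 bases upstream of the start; Slc2a4 had no entry. The 2 enolase genes and the phosphofructokinase genes Pfkm and Pfkl are shown, because within each pair 1 gene followed the muscle markers across libraries and the other did not, and the windows differ in base composition. Capitals mark GC boxes (GGGCGG or its reverse complement CCGCCC) and the hypoxia response core (ACGTG or CACGT).
Eno3 (chr10:55868936-55869185, plus strand): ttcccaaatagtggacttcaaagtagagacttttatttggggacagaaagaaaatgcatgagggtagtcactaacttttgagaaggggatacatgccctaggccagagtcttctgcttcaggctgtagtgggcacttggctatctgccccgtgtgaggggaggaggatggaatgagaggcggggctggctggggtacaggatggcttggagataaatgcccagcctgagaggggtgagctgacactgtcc
Eno1 (chr5:166003111-166003360, plus strand): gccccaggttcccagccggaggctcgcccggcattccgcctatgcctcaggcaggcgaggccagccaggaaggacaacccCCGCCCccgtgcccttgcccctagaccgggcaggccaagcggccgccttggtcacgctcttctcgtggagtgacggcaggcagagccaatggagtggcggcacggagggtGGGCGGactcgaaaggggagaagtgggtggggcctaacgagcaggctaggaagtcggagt
Pfkm (chr7:131113849-131114098, plus strand): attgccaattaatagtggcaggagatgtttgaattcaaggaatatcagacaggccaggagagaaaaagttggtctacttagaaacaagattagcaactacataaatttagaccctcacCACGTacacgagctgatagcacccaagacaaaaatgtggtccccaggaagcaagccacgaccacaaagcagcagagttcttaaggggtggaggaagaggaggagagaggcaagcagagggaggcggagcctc
Pfkl (chr20:10663715-10663964, plus strand): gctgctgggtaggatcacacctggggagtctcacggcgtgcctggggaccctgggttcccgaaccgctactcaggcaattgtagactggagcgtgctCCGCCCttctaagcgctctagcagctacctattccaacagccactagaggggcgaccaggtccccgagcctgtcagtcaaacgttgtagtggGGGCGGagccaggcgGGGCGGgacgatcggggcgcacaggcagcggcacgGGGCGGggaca

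The printed Eno3 window had 52.4% G and C and none of the searched motifs, and that of Pfkm had 47.6% and 1 hypoxia core at -132 from the start. The Eno1 window shown had 69.2% and GC boxes at -170 and -60, and that of Pfkl had 66.0% and GC boxes at -153, -61, -46 and -11. The median over all 33469 windows of the same length was 51.2%, with quartiles of 44.0 and 60.0%. Of the other windows, Slc2a1 (68.4%), Gpi (68.0%) and Pfkp (62.8%) held 3, 2 and 2 GC boxes, Hk2 (49.6%) held none, 1 of 2 Hk1 windows (70.0 and 48.8%) held 2, and the second Eno1 window (54.4%) held none. GC boxes were in 30.5% of all windows and the hypoxia core in 16.6%; the core was also in the windows of Slc2a1 and Hk1. The muscle E-box CAGCTG, present in 4007 of all windows, was found in that of Gpi only, at -147, and the MEF2 motif, present in 0.523%, in none of the 11. Both strands were searched, and a match describes letters and not a bound site.

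MetOP saline versus healthy control compares the untreated disease model with healthy bone. None of the 10 genes was called: edgeR's quasi-likelihood test with Benjamini-Hochberg adjustment called 0 of 10, and 0.0% of the 15271 tested genes. DESeq2 called 0 of 10, and 0.306% of its tested genes. At an unadjusted p under 0.05 there were 0 of 10 genes, against 6.55% of all tested genes. In MetOP saline libraries Slc2a4 averaged 27.8 ± 9.40 FPKM (SD, n = 5) and Eno3 529 ± 246, against 40.7 ± 18.4 and 677 ± 329 in healthy control libraries (n = 4). In 3 of 5 saline libraries Eno3 lay below every control, and in 3 of 5 Pfkp lay above every control.

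Log2 fold changes (± standard error) in MetOP saline versus healthy control were -0.55 ± 0.63 for Slc2a1, -0.56 ± 0.62 for Slc2a4, 0.65 ± 0.52 for Hk1, -0.19 ± 0.40 for Hk2, -0.17 ± 0.48 for Gpi, -0.42 ± 0.67 for Pfkm, 0.05 ± 0.48 for Pfkl, 0.65 ± 0.49 for Pfkp, -0.24 ± 0.19 for Eno1 and -0.38 ± 0.73 for Eno3. The smallest edgeR adjusted p among them was 0.923. The median of the 10 was -0.22, against 0.04 over all tested genes, and 3 of 10 were higher, against 52.5% of all. The summed CPM of skeletal muscle markers ran from 21040 to 44940 in MetOP saline libraries and from 33110 to 72640 in healthy control libraries. With the muscle level as a covariate in the fit, the log2 fold changes were 0.003 for Slc2a4, 0.11 for Pfkm and 0.19 for Eno3.

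The comparison of semaglutide with MetOP saline tests the GLP-1 receptor agonist in the diseased rats. None of the 10 was called by edgeR, which called 0.0% of tested genes, or by DESeq2, which called 0.618% of its tested genes. In edgeR 4 of 10 had an unadjusted p under 0.05, against 11.4% of all tested genes. They were 1 higher gene, against 4.18% of all, and 3 lower ones, against 7.24% of all. Hk2 was higher with semaglutide, at 2.57 ± 0.536 FPKM (SD, n = 5), against 1.417 ± 0.535 with saline (n = 5), a log2 fold change of 0.86 ± 0.38 (edgeR adjusted p = 0.406). It was the single gene of the 10 whose groups did not overlap upward, which was the case for 2.71% of tested genes. Hk1, Pfkl and Pfkp were lower with semaglutide, at 1.45 ± 0.754, 1.16 ± 0.373 and 1.00 ± 0.574 FPKM, against 3.56 ± 1.61, 2.45 ± 1.08 and 2.31 ± 0.779 FPKM with saline. Their log2 fold changes were -1.27 ± 0.49 for Hk1 (edgeR adjusted p = 0.393), -1.05 ± 0.46 for Pfkl (adjusted p = 0.404) and -1.17 ± 0.47 for Pfkp (adjusted p = 0.393).

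The muscle isozymes were higher on average with semaglutide and did not pass: Slc2a4 by 0.79 ± 0.59 on the log2 scale, with every saline library below 4 of the 5 semaglutide libraries, Pfkm by 0.69 ± 0.64 and Eno3 by 0.59 ± 0.70. Gpi was at 0.51 ± 0.46, Slc2a1 at 0.07 ± 0.60 and Eno1 at -0.09 ± 0.18. The median of the 10 was 0.29, against -0.04 over all tested genes, and 6 of 10 were higher, against 47.6% of all. Some marker lists moved in this comparison and others moved little. Mean summed chondrocyte markers were 24.4 CPM with semaglutide, against 1363 with saline. Osteoclast markers were 39.6 CPM, against 307 with saline, and fibroblast markers 113 CPM, against 382 with saline. In each of these lists the groups overlapped. Mean summed endothelial markers were 133.6 CPM with semaglutide, against 142.3 with saline, and B cell markers 23.98, against 25.2. Neutrophil markers ran from 95.3 to 2188 CPM with semaglutide and from 684.5 to 1366 CPM with saline. Summed macrophage markers ran from 8.53 to 35.3 CPM with semaglutide and from 33.6 to 57.8 CPM with saline, erythroid markers from 1508 to 15840 with semaglutide, against 5811 to 32940 with saline, and osteoblast markers up to 393 with semaglutide, against up to 3679 with saline. Skeletal muscle markers ran from 32620 to 78230 CPM with semaglutide and from 21040 to 44940 CPM with saline. With the muscle level as a covariate the log2 fold changes were 0.57 ± 0.30 for Hk2, -0.91 ± 0.39 for Hk1, -0.76 ± 0.44 for Pfkl, -0.97 ± 0.47 for Pfkp, 0.11 ± 0.21 for Slc2a4, -0.22 ± 0.34 for Pfkm and -0.36 ± 0.36 for Eno3. The part of the other marker lists was not tested.

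PYY3-36 versus MetOP saline tests the gut peptide, with the same 5 saline libraries. None of the 10 was called by edgeR (0.0% of tested genes) or by DESeq2 (0.0889% of its tested genes). DESeq2 gave an adjusted p to only 5624 genes here, against 14880 in semaglutide versus saline. It could not call a gene without one, and which of the 10 had one is not given here. In edgeR 1 of 10 had an unadjusted p under 0.05, against 4.85% of all. This was Slc2a1, at 1.22 ± 0.844 FPKM with PYY3-36 (SD, n = 4), against 0.451 ± 0.113 with saline (n = 5), a log2 fold change of 1.41 ± 0.63 (edgeR adjusted p = 0.989). In 3 of 4 PYY3-36 libraries Slc2a1 lay above every saline library, and in A220 it lay below every one. The summed endothelial markers were 334, 246 and 388 CPM in A215, A216 and A219, above the 104.2 to 161.5 CPM seen with saline. In A220 they stood at 127 CPM, within the saline range. A216, the highest in Slc2a1, was the lowest of those 3 in endothelial markers. The part of these markers in the difference was not tested.

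The other log2 fold changes for PYY3-36 versus MetOP saline were -0.10 ± 0.62 for Slc2a4, -0.27 ± 0.52 for Hk1, -0.15 ± 0.40 for Hk2, -0.72 ± 0.49 for Gpi, -0.83 ± 0.68 for Pfkm, 0.04 ± 0.48 for Pfkl, 0.10 ± 0.48 for Pfkp, 0.15 ± 0.19 for Eno1 and -1.05 ± 0.75 for Eno3. The median of the 10 was -0.12, against -0.01 over all tested genes, and 4 of 10 were higher, against 49.5% of all. Skeletal muscle markers ran from 4138 to 39190 CPM with PYY3-36 and from 21040 to 44940 CPM with saline. Without A216 and A320, a choice made after seeing the data, Slc2a1 stood at 1.00 ± 0.70 (edgeR unadjusted p = 0.167). In the same setting Slc2a4 turned to 0.33 and Hk2 to 0.19. Adjusted for the muscle level, Slc2a4 stood at 0.78 ± 0.23 (edgeR adjusted p = 0.473) and Slc2a1 at 0.75 ± 0.64.

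The combination versus MetOP saline, again with the same saline libraries, gave 0 of 10 called by edgeR (0.0% of tested genes) and by DESeq2 (0.0253% of its tested genes). At an unadjusted edgeR p under 0.05 there were 0 of 10, against 3.06% of all. Log2 fold changes were 0.39 ± 0.60 for Slc2a1, 0.27 ± 0.59 for Slc2a4, -0.41 ± 0.49 for Hk1, 0.23 ± 0.37 for Hk2, 0.35 ± 0.46 for Gpi, 0.26 ± 0.63 for Pfkm, -0.12 ± 0.45 for Pfkl, -0.80 ± 0.46 for Pfkp, -0.02 ± 0.18 for Eno1 and 0.20 ± 0.69 for Eno3. Each edgeR adjusted p was 1.0. The median of the 10 was 0.22, against 0.02 over all tested genes, and 6 of 10 were higher, against 52.5% of all. The combination held both the library with the highest Eno3, A251, and the one with the lowest, A320, and its muscle markers ran from 2397 to 86330 CPM. Without A251 the signs of Slc2a4 (-0.13), Gpi (-0.14), Pfkm (-0.35) and Eno3 (-0.39) turned.

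**Figure D5:**
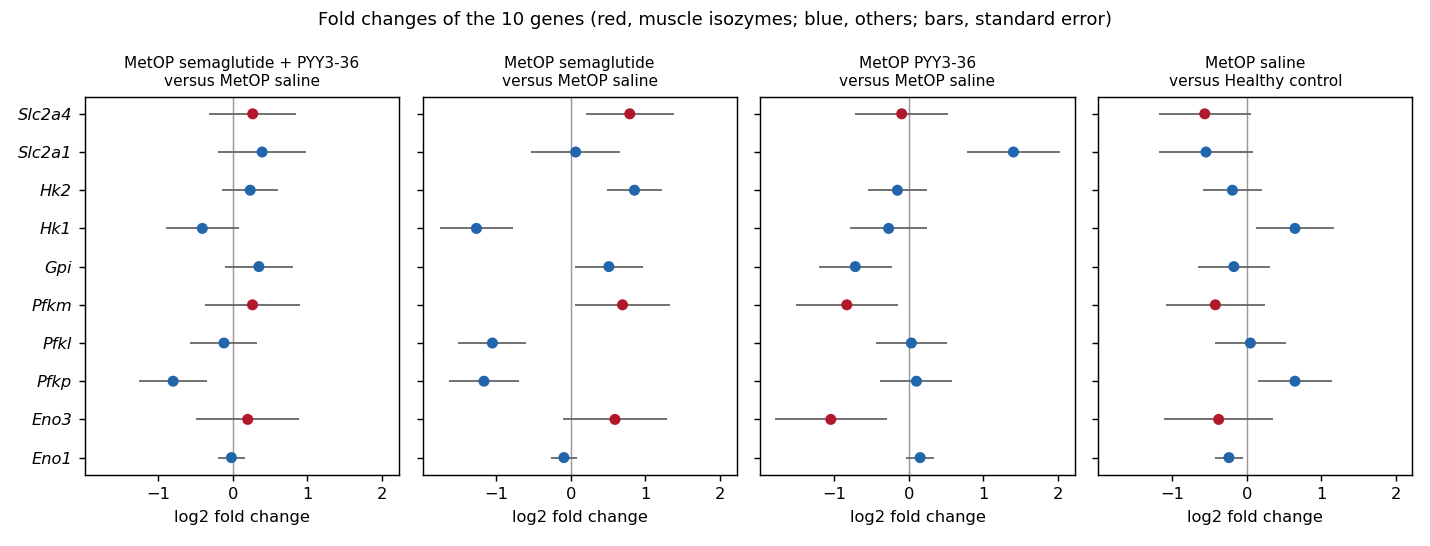
Log2 fold changes with standard errors of the 10 genes in the 4 comparisons of the combination, semaglutide and PYY3-36 with MetOP saline and of MetOP saline with healthy control, from edgeR. None passed at an adjusted p under 0.05; with semaglutide Hk2 stands at 0.86 and Hk1, Pfkl and Pfkp between -1.27 and -1.05.

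Semaglutide versus PYY3-36 had the most of the 10 genes at an unadjusted p under 0.05 among the 8 comparisons. The edgeR test called 0 of 10, with 0.00655% of tested genes called, and DESeq2 called 0 of 10, with 4.26% of its tested genes called. In edgeR 7 of 10 had an unadjusted p under 0.05, against 16.9% of all. They were 4 higher genes, against 6.93% of all, and 3 lower ones, against 9.93% of all. Those higher with semaglutide were Hk2 (log2 fold change 1.01 ± 0.40, edgeR adjusted p = 0.222), Gpi (1.23 ± 0.50, adjusted p = 0.228), Pfkm (1.53 ± 0.70, adjusted p = 0.271) and Eno3 (1.64 ± 0.77, adjusted p = 0.280). Those lower were Pfkp (-1.27 ± 0.49, edgeR adjusted p = 0.211), Pfkl (-1.09 ± 0.48, adjusted p = 0.258) and Slc2a1 (-1.34 ± 0.63, adjusted p = 0.279). Hk2 did not overlap between these groups, as was the case upward for 2.89% of tested genes, and the others did.

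In FPKM, Pfkm averaged 179 ± 95.1 with semaglutide (SD, n = 5), against 64.4 ± 38.2 with PYY3-36 (n = 4), and Eno3 781 ± 435 with semaglutide, against 260 ± 159 with PYY3-36. Both groups held 1 library of low fast fibre level and high slow fibre level (A242 and A220), and the PYY3-36 group also held A216. Without A216 and A320, Slc2a1 stood at -0.93 ± 0.70 (edgeR unadjusted p = 0.196), Pfkl at -0.98 ± 0.50 and Pfkp at -1.44 ± 0.52. In that setting the log2 fold changes were 1.24 ± 0.57 for Eno3, 1.11 ± 0.51 for Pfkm, 0.98 ± 0.47 for Gpi and 0.67 ± 0.36 for Hk2. With the muscle level as a covariate they were -0.47 ± 0.46 for Eno3, -0.31 ± 0.42 for Pfkm and 0.33 ± 0.35 for Hk2. Slc2a4, at 0.89 ± 0.63 without the covariate, stood at -0.67 ± 0.25 with it (edgeR adjusted p = 0.707). Other marker lists moved as well, in both directions. Mean summed markers were higher with semaglutide than with PYY3-36 for neutrophils (679.9 against 499.7 CPM) and megakaryocytes (16.7 against 10.1 CPM). The same was so for B cells (23.98 against 17.45 CPM) and adipocytes (82.6 against 78.4 CPM), and in all of these lists the groups overlapped. All 6 chondrocyte markers (median log2 fold change -5.67), all 10 osteoblast markers (-2.04), 6 of 7 osteoclast markers (-2.84), all 6 fibroblast markers (-2.98), all 7 endothelial markers (-1.02) and all 6 macrophage markers (-0.98) were lower with semaglutide, none past the adjusted threshold. These medians include A216, and the PYY3-36 libraries differed widely. Summed chondrocyte markers ran from 10.3 to 4992 CPM with PYY3-36 (median 94.8) and from 3.18 to 64.4 CPM with semaglutide. Osteoclast markers ran from 28.3 to 903.1 CPM with PYY3-36 (median 168.6) and from 14.6 to 105.8 CPM with semaglutide. The part of these lists in the lower Pfkp, Pfkl and Slc2a1 was not tested. Without A220 this comparison called 1021 genes, 6.5% of those tested, but again none of the 10, with a smallest edgeR adjusted p of 0.0663, for Pfkl.

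The remaining comparisons had few members below an unadjusted p of 0.05. Combination versus PYY3-36 had 1 of 10, against 6.24% of tested genes, namely Gpi (log2 fold change 1.07 ± 0.50, edgeR adjusted p = 0.778). Combination versus semaglutide had 0 of 10, against 5.65% of tested genes, with Pfkl smallest in p (0.93 ± 0.46, edgeR adjusted p = 0.816). The interaction of both drugs, which asks whether their log2 effects add up in the combination, had 0 of 10, against 4.58%, with Hk1 smallest in p (1.13 ± 0.71, edgeR adjusted p = 0.999). In each of these, edgeR and DESeq2 called 0 of 10, and edgeR called 0.0% of tested genes. DESeq2 called 0.0921, 0.0838 and 0.0393% of its tested genes, in the same order.

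Other genes of glucose handling were taken from a list by role of 66 transporters, glycolytic and glycogen enzymes and their regulators, of which 64 matched and 59 were tested. edgeR called none of the 59 in any of the 8 comparisons, and DESeq2 called 2 of 51 in semaglutide versus PYY3-36, where it called 4.26% of all genes, and 0 in the others. In PYY3-36 versus saline only 37 of the 59 had an adjusted p from DESeq2 and could be called. At an unadjusted p under 0.05, 2 were higher and 0 lower in MetOP saline versus healthy control, against 4.68 and 1.87% of all tested genes. There were 2 higher and 4 lower in semaglutide versus saline, against 4.18 and 7.24% of all, and 3 higher and 0 lower in PYY3-36 versus saline, against 3.46 and 1.38% of all. Combination versus saline had none, against 1.46 and 1.6% of all. In semaglutide versus PYY3-36, 10 were higher and 6 lower, against 6.93 and 9.93% of all, with a list median of 0.45, against -0.07 over all tested genes. The smallest p values there were those of Hif1a, the hypoxia-responsive transcription factor subunit (-1.44 ± 0.32, edgeR adjusted p = 0.071), and its target Ndrg1 (-1.48 ± 0.40, adjusted p = 0.0973), the 2 genes that DESeq2 called (adjusted p = 0.00409 and 0.0152). Without A220, edgeR called 6 of the 59 in this comparison, where it called 6.5% of all genes, with Gbe1, Pdk1 and Ldhb higher and Hif1a, Ndrg1 and Eno2 lower with semaglutide. In semaglutide versus saline they were those of Eno2 (-1.74 ± 0.65, adjusted p = 0.393) and Hif1a (-0.74 ± 0.31, adjusted p = 0.394), and in PYY3-36 versus saline those of Ndrg1 (1.03 ± 0.40, adjusted p = 0.939) and Hif1a (0.70 ± 0.32).

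In MetOP saline versus healthy control the smallest p values of the list were those of Pfkfb2, a regulator of the phosphofructokinase step (log2 fold change 1.504 ± 0.546, edgeR adjusted p = 0.674), and the muscle transcription factor gene Mef2a (0.59 ± 0.27). In combination versus saline they were those of the hypoxia-induced hydroxylase gene Egln3 (1.11 ± 0.55) and Eno2 (-1.23 ± 0.65). In combination versus semaglutide 2 were higher and 0 lower, against 3.99 and 1.66% of all, led by Ndrg1 (1.01 ± 0.38) and Hif1a (0.64 ± 0.31). In combination versus PYY3-36 1 was higher and 2 lower, against 2.05 and 4.19% of all, led by Hif1a (-0.80 ± 0.32) and Gys2, which had 71 counts over all 23 libraries and 0 in the PYY3-36 group. In the interaction 2 were higher and 0 lower, against 2.89 and 1.7% of all, Gys2 and Bpgm (1.35 ± 0.65), which encodes the bisphosphoglycerate mutase of red blood cells.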

How the data were processed

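Per the labels, polyadenylated RNA of rat femora was sequenced as 23 libraries. The authors deposited raw counts per Ensembl gene and FPKM values, on build mRatBN7.2 with DESeq2 1.42.0 per the submitters' processing notes. Names of the aligner and counter were not given in the sources used here. Deposited FPKM were made with a depth per library that is not the count total. The labels' protocol covers library preparation with and without strand marking, so overlapping genes are uncertain: Pfn1 (46990 counts over all libraries) overlaps Eno3 (864776 counts) on the opposite strand. The Eno1 pseudogenes Eno1-ps1, Eno1-ps20 and Eno1-ps6 had 358, 307 and 499 counts, against 30729 for Eno1.

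Differences in counts came from edgeR 4.0.16 (quasi-likelihood test, TMM, filterByExpr by group; limma 3.58.1, R 4.3.3), in 1 fit of all libraries to the 5 group means, which left 18 residual degrees of freedom, with Benjamini-Hochberg adjustment over 15271 genes; a call is an adjusted p under 0.05. The common biological coefficient of variation was 69.9%. Log2 CPM used a prior count of 2. Correlations used 100000 permutations (Python 3.11.15, scipy 1.17.1). The fit was also run on simulated data. The share of true changes it recovered is not given here, so an absence of calls does not show an absence of change. Slc2a1 rested on the fewest counts of the 10 genes, 10 to 172 a library. All 10 genes are named with values; of the other genes, those of smallest p or highest rho are named, and isozymes of the same steps, of which 1 is not reported here. The genes, lists and rules were chosen with earlier results of these data known. The relations with lists other than skeletal muscle, the relations within the 19 libraries of high fast fibre level, and the 45 pairs were added after seeing the data. Alternatives were another normalization (RLE), no filter, DESeq2, mitochondrially encoded genes left out, the muscle level as a covariate, and leaving out libraries.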

Additional observations from a re-analysis of the deposited data

Results flagged for a closer look

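In 50 groups of 4 or 5 libraries (10 genes in 5 groups), 6 had 1 library far from the others by Dixon's criterion, which chance gives in about 1 in 20 groups. MetOP saline library A265 stood above the other 4 in Gpi (218.7 CPM, others 109 to 127), Pfkm (639 CPM, others 394 to 406) and Eno3 (2383 CPM, others 906 to 1189). Pfkp, the platelet subunit, accounted for the other 3. It was low in healthy control A389 (1.52 CPM, others 5.11 to 5.45) and high in semaglutide library A241 (6.36 CPM, others 1.65 to 2.75) and in PYY3-36 library A215 (14.02 CPM, others 4.44 to 5.96).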

How the results depend on the processing

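No paired analysis was possible because the groups share no replicate numbers. No member was called under any alternative. The number of all genes called was 0 by edgeR in each comparison except semaglutide versus PYY3-36 (1); DESeq2 called 50 in MetOP saline versus healthy control, 92 in semaglutide versus saline, 5 in PYY3-36 versus saline, 5 in combination versus saline, 502 in semaglutide versus PYY3-36, 14 in combination versus semaglutide, 13 in combination versus PYY3-36 and 6 in the interaction; the cause was not tested. Leaving out single libraries gave 0 to 1 in PYY3-36 versus saline, 1 to 1021 in semaglutide versus PYY3-36 and 0 to 2 in combination versus PYY3-36 (highest without A220 in each), 0 to 3 in combination versus semaglutide (highest without A251), and 0 in the others. With the muscle level as a covariate, signs turned in MetOP saline versus healthy control for Slc2a4 (0.003), Hk2 (0.007), Gpi (0.108), Pfkm (0.109), Pfkl (-0.077) and Eno3 (0.191), in semaglutide versus saline for Pfkm (-0.223) and Eno3 (-0.355), in PYY3-36 versus saline for Slc2a4 (0.78), Hk2 (0.233), Pfkm (0.086), Pfkl (-0.338), Pfkp (-0.09) and Eno3 (0.111), in combination versus saline for Slc2a4 (-0.154), Pfkm (-0.42) and Eno3 (-0.488), in semaglutide versus PYY3-36 for Slc2a4 (-0.666), Pfkm (-0.309) and Eno3 (-0.466), in combination versus PYY3-36 for Slc2a4 (-0.934), Pfkm (-0.507), Eno3 (-0.599), Hk1 (0.227), Hk2 (-0.065) and Pfkl (0.141), in combination versus semaglutide for Gpi (0.113), Eno1 (-0.008) and Slc2a1 (-0.03), and in the interaction for Pfkm (-0.284) and Eno3 (-0.244). Without A216 and A320, chosen after seeing the data, they turned in PYY3-36 versus saline for Slc2a4 (0.325), Hk2 (0.186) and Pfkl (-0.089) and in combination versus semaglutide for Gpi (0.097), and without mitochondrially encoded genes for Eno1 in combination versus saline (0.003). In the 4 comparisons with saline or of saline with controls, leaving out single libraries turned signs in MetOP saline versus healthy control for Slc2a1 (-0.875 to 0.035), Hk2 (-0.345 to 0.014), Gpi (-0.398 to 0.118), Pfkl (-0.177 to 0.485) and Eno3 (-0.708 to 0.006), in semaglutide versus saline for Slc2a1 (-0.167 to 0.196), in PYY3-36 versus saline for Slc2a4 (-0.851 to 0.261), Hk2 (-0.346 to 0.121), Pfkl (-0.157 to 0.338) and Pfkp (-0.337 to 0.318), and in combination versus saline for Slc2a4 (-0.128 to 0.566), Hk2 (-0.022 to 0.423), Gpi (-0.14 to 0.579), Pfkm (-0.352 to 0.569), Pfkl (-0.333 to 0.104), Eno1 (-0.089 to 0.061) and Eno3 (-0.388 to 0.531). Counts in place of FPKM lowered the mean share of Hk2 in each group, to 31.7% in the combination, 50.5% with semaglutide, 21.4% with PYY3-36, 19.2% with saline and 28.5% in healthy controls; only the last moved by more than 1 SD between libraries. Of 30 alternative correlations with the muscle level, 3 no longer passed by r, those of Pfkl and Eno1 without A216 and A320 and that of Pfkp on deviations from group means, of which Pfkl and Pfkp passed by rho.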
